A study of Homo sapiens with 18 samples.

Results

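Metallothioneins are small, cysteine-rich proteins that bind zinc and copper in the cytoplasm, buffer free zinc and scavenge reactive oxygen species. Their genes are switched on within hours by the transcription factor MTF1, which senses free zinc and binds short metal response elements close to the gene start, and several of them also respond to oxidative stress and glucocorticoids. The rows of 8 genes were taken by symbol, as MT1A, MT1E, MT1F, MT1G, MT1H, MT1M, MT1X and MT2A, from the 43735 genes with a row in the table of raw read counts, without a threshold on their values. Other metallothionein rows, MT1B among them, are described after the members.

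The counts came from RNA sequencing of 2 human multiple myeloma lines, MM1S, which is sensitive to glucocorticoids, and MM1R, a resistant line of the same origin with a defective glucocorticoid receptor. Each line was left untreated, exposed to 5 µM RSL3 for 3 h, or given 2 µM Fer-1 for 2 h and then 5 µM RSL3 for 3 h, with 3 libraries in each of these 6 groups and 18 libraries in all. RSL3 blocks the lipid peroxide-reducing enzyme GPX4 and so induces ferroptosis, an iron-dependent form of cell death. Fer-1 (ferrostatin-1) traps lipid radicals and blocks ferroptosis. The replicates of MM1R come from passages 4, 6 and 7 and those of MM1S from passages 16, 22 and 23, and every treatment was sampled once at each passage. No group received Fer-1 alone, and each kind of myeloma cell, sensitive or resistant, is represented by 1 cell line. In bulk RNA, a level carried by all cells and a level carried by some of the cells cannot be told apart.

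Library totals were 17635438 to 19368343 counts. The plasma cell markers SDC1 (371 to 925 CPM, counts per 1000000 counts of the library after TMM scaling) and XBP1 (1108 to 1649 CPM) were high in all 18 libraries, while the B cell markers MS4A1 and PAX5 had at most 1 and 9 counts, and the myeloid markers CD14 and LYZ at most 7 and 2. CD3E and HBB were at 3.26 to 11.5 and 3.40 to 12.7 CPM. NR3C1, the gene of the glucocorticoid receptor, was at 13.8 to 22.3 CPM in 8 MM1R libraries and at 89.9 to 392 CPM in MM1S cells. The passage 6 library labelled MM1R Fer-1+RSL3 (replicate 2) stood apart from the rest of its line at 50.2 CPM, and the counts of calls that change without it are given beside them.

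The 8 genes lie side by side on chromosome 16, between positions 56642496 and 56718108 of the human genome build hg19, a span of 75.6 kb. Along the chromosome the order is MT2A, MT1E, MT1M, MT1A, MT1F, MT1G, MT1H and MT1X. MT1G is read from the minus strand and the others from the plus strand. Their main transcripts are 396 to 746 bases long. MT1X shares its strand and position with the long noncoding RNA gene ENSG00000259827. Because the genes are near copies of each other, 5.76% to 20.4% of the 50-base windows in a main transcript also occur in another metallothionein gene. Only 49% of the windows of MT1X occur in no other gene, against 79.6% to 94.2% for the other 7 genes, so the split of reads between members is uncertain where the counting could not place them.

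Since metal response elements are the best known switch of these genes, the 250 bases before the gene start are shown for MT2A, MT1H and MT1X, the 3 of the 8 members with an entry in the RefSeq promoter sequences (build GRCh38.p14, all on the plus strand of chromosome 16, printed 5′ to 3′ up to the base before the start). Capitals mark the cores TGCACNC and TGCGCNC of the metal response element on either strand. MT2A is chr16:56608334-56608583, MT1H is chr16:56669564-56669813 and MT1X is chr16:56682220-56682469.
MT2A: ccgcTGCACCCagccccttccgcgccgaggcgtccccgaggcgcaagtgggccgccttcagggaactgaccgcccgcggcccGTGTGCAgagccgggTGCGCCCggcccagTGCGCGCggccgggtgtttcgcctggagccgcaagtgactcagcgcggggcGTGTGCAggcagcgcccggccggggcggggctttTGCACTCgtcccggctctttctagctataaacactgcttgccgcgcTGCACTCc
MT1H: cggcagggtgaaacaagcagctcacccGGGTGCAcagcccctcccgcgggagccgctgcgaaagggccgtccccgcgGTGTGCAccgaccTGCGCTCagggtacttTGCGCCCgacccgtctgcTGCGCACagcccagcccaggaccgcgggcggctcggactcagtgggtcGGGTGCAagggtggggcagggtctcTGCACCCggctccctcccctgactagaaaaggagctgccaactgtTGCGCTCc
MT1X: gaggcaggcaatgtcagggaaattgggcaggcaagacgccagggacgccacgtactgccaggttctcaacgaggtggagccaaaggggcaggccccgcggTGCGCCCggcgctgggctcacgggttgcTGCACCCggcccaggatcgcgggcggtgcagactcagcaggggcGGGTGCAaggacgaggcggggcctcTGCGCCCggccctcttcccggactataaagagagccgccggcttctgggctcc

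MT2A held 7 cores, MT1H 8 and MT1X 4. Over the same 250 bases of 35116 RefSeq promoters, 24.8% held at least 1 core, 0.37% held 4 or more and 0.0313% (11 promoters) held 7 or more. TGCACNC alone was found in 9.87% of the promoters and TGCGCNC in 16.8%, and no marked match overlapped another in these 3 windows. A core began 54 bases before the start in MT2A and 53 bases before it in MT1H and MT1X. The antioxidant response element core TGACNNNGC, present in 10.9% of promoters, was found once each in MT2A and MT1X and not in MT1H. The heat shock element GAANNTTC (5.78% of promoters) matched in none of the 3, and the TATA box TATAAA (10.7%) matched 29 bases before the start in MT2A and 30 bases before it in MT1X. MT1B, a gene outside the 8 with at most 27 counts in a library, held 3 cores in the same window. A core began 53 bases before its start and TATAAA 30 bases before it. These matches describe the letters of each window and do not show that a factor bound there.

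In untreated cells the family was close to silent. MT2A had 10, 35 and 29 counts in MM1R cells at passages 4, 6 and 7, and 32, 19 and 28 counts in MM1S cells at passages 16, 22 and 23. MT1X had 20, 29 and 55 counts in MM1R cells and 35, 30 and 42 in MM1S cells. The other 6 genes had at most 3 counts in any untreated library, and MT1E, MT1H, MT1M and MT1A had 0 in all 6. A count of 0 allows up to 3 counts per library, here and below for counting error only. The summed level of the 8 genes was 1.56 to 4.98 CPM in untreated MM1R cells and 2.66 to 3.71 CPM in untreated MM1S cells, which overlap. A gene was called when its false discovery rate (FDR) was below 0.05 and its log2 fold change exceeded 1 in either direction. No member was called different between the untreated lines by edgeR (lowest FDR 0.84, against 4.64% of all genes called), nor by DESeq2 or limma, and 0 of the 6 tested members had an unadjusted p under 0.05.

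After RSL3 the summed level of the metallothioneins was above the untreated level in both lines and at every passage, over a range of sizes. The same held for MT2A, MT1X, MT1G, MT1H and MT1F at all 6 passages, for MT1E at 5 and for MT1M and MT1A at 3. Some of these differences lay at the floor. MT1E had only 2 and 1 counts against 0 at passages 22 and 23, and MT1F had 4 against 2 at passage 6. The summed level was 2390, 26.9 and 825 CPM in MM1R cells at passages 4, 6 and 7, and 3383, 161 and 64.2 CPM in MM1S cells at passages 16, 22 and 23. Within a passage this was 1533, 7.36 and 166 times the untreated level in MM1R cells and 946, 60.6 and 17.3 times in MM1S cells. All 6 RSL3 libraries lay above all 6 untreated libraries, but the highest RSL3 library was 89.0 times the lowest in MM1R cells and 52.7 times in MM1S cells. At their highest the 8 genes made up 0.243% of all counts in MM1R cells and 0.292% in MM1S cells.

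**Figure D1:**
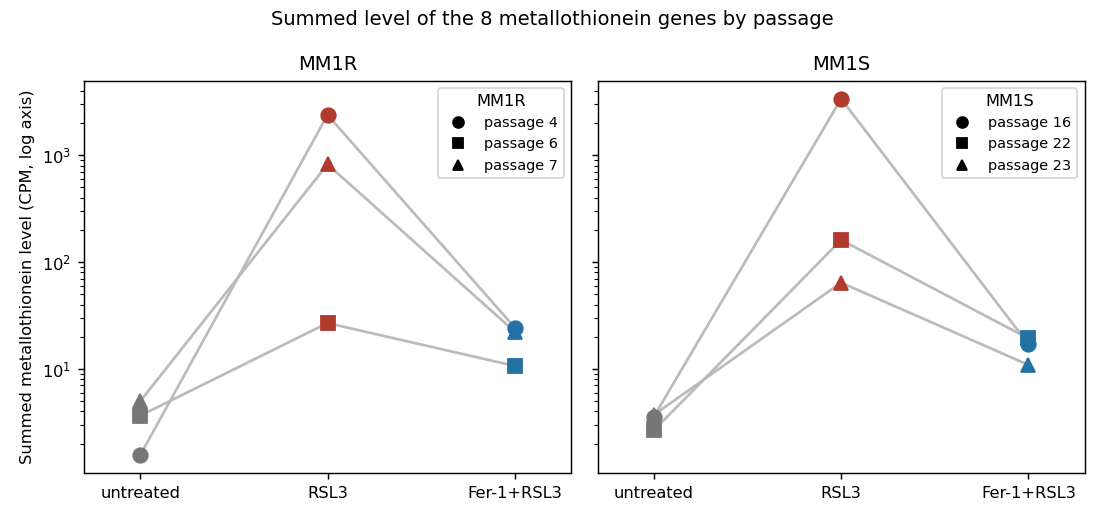
Summed level of the 8 metallothionein genes in CPM (log axis) in untreated, RSL3 and Fer-1+RSL3 libraries of MM1R (left) and MM1S (right), with lines joining libraries of the same passage. The RSL3 level ranges from 26.9 to 2390 CPM in MM1R and from 64.2 to 3383 CPM in MM1S, and in all 6 passages it lies above both the untreated and the Fer-1+RSL3 level.

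MT2A, the most widely expressed human metallothionein, had 13606, 124 and 4424 counts after RSL3 in MM1R cells and 16745, 1054 and 416 in MM1S cells. Passage 6 of MM1R was the low library, and all RSL3 libraries were above all untreated ones. The fitted log2 fold change was 7.92 ± 1.61 (SE, n = 3 against 3) in MM1R cells, with a Benjamini-Hochberg FDR of 0.0136 in the quasi-likelihood test of edgeR, and 8.17 ± 1.62 in MM1S cells, with an edgeR FDR of 0.0127. MT1X, also basally expressed, followed it with 17624, 248 and 6220 counts in MM1R cells and 23969, 1363 and 533 in MM1S cells. Its log2 fold changes were 7.83 ± 1.56 (edgeR FDR 0.0123) and 8.25 ± 1.58 (edgeR FDR 0.0111).

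MT1G, whose product carries 1 residue more than the usual 61, had at most 2 counts in an untreated library. After RSL3 it had 11617, 116 and 3426 counts in MM1R cells and 8170, 386 and 179 in MM1S cells. Summed over the 3 libraries, the RSL3 level was 5076 times the untreated level in MM1R cells (95% counting interval 1737 to 24617, from 3 untreated counts) and 9669 times in MM1S cells (1735 to 381954, from 1 untreated count). These intervals cover counting error only, since the reads carry no molecular identifiers. The fitted log2 fold changes, which for so few untreated counts depend on the prior count of the fit, were 12.13 (edgeR FDR 0.00985) and 12.95 (edgeR FDR 0.0112).

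MT1H had 848, 4 and 220 counts after RSL3 in MM1R cells and 918, 49 and 23 in MM1S cells, against 0 in every untreated library. The rise was at least 119-fold in MM1R cells and at least 139-fold in MM1S cells, taking 3 counts in each untreated library as the floor. It was called in MM1S cells (edgeR FDR 0.0474) and not in MM1R cells (edgeR FDR 0.0547), where passage 6 gave only 4 counts. The MM1S call did not hold without any 1 of 14 of the 18 libraries, the one that stood apart among them (edgeR FDR up to 0.211, without the passage 16 RSL3 library). It held only without replicate 1 or 2 of MM1R RSL3 or replicate 2 or 3 of MM1S RSL3. The difference between the lines was not called (edgeR FDR 1.00).

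MT1F had 562, 4 and 147 counts after RSL3 in MM1R cells and 1486, 175 and 52 in MM1S cells, against 0 to 3 in untreated libraries. Its ratio of summed levels was 358 (95% counting interval 98.8 to 2963) in MM1R cells and 271 (131 to 675) in MM1S cells, with edgeR FDRs of 0.0271 and 0.0127. MT1E was measurable in few libraries, with 154, 0 and 37 counts after RSL3 in MM1R cells and 171, 2 and 1 in MM1S cells. Against untreated libraries at 0 its rise was at least 21.1-fold and at least 24.6-fold, and it was called in neither line (edgeR FDR 0.128 and 0.11). The 2 RSL3 libraries at passages 22 and 23 of MM1S cells lay within the limit that a count of 0 allows.

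MT1M and MT1A stayed at the edge of detection. MT1M had 23, 0 and 5 counts after RSL3 in MM1R cells and 4, 0 and 0 in MM1S cells. MT1A had 7, 0 and 4 counts in MM1R cells and 5, 0 and 0 in MM1S cells. Both were at 0 in all 12 libraries of the other groups, and neither passed the filter on low counts. In a fit without that filter MT1M was called in MM1R cells (edgeR FDR 0.00166, with 1.55% of 27858 genes called) and not in MM1S cells (edgeR FDR 0.363, with 1.86% called), and MT1A was called in neither (edgeR FDR 0.1 and 0.317). That fit gave far smaller standard errors, 0.269 for MT2A in MM1R cells after RSL3 against 1.61 with the filter. Its FDRs thus hold little of the spread between replicates, and the MT1M call is weak.

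**Figure D2:**
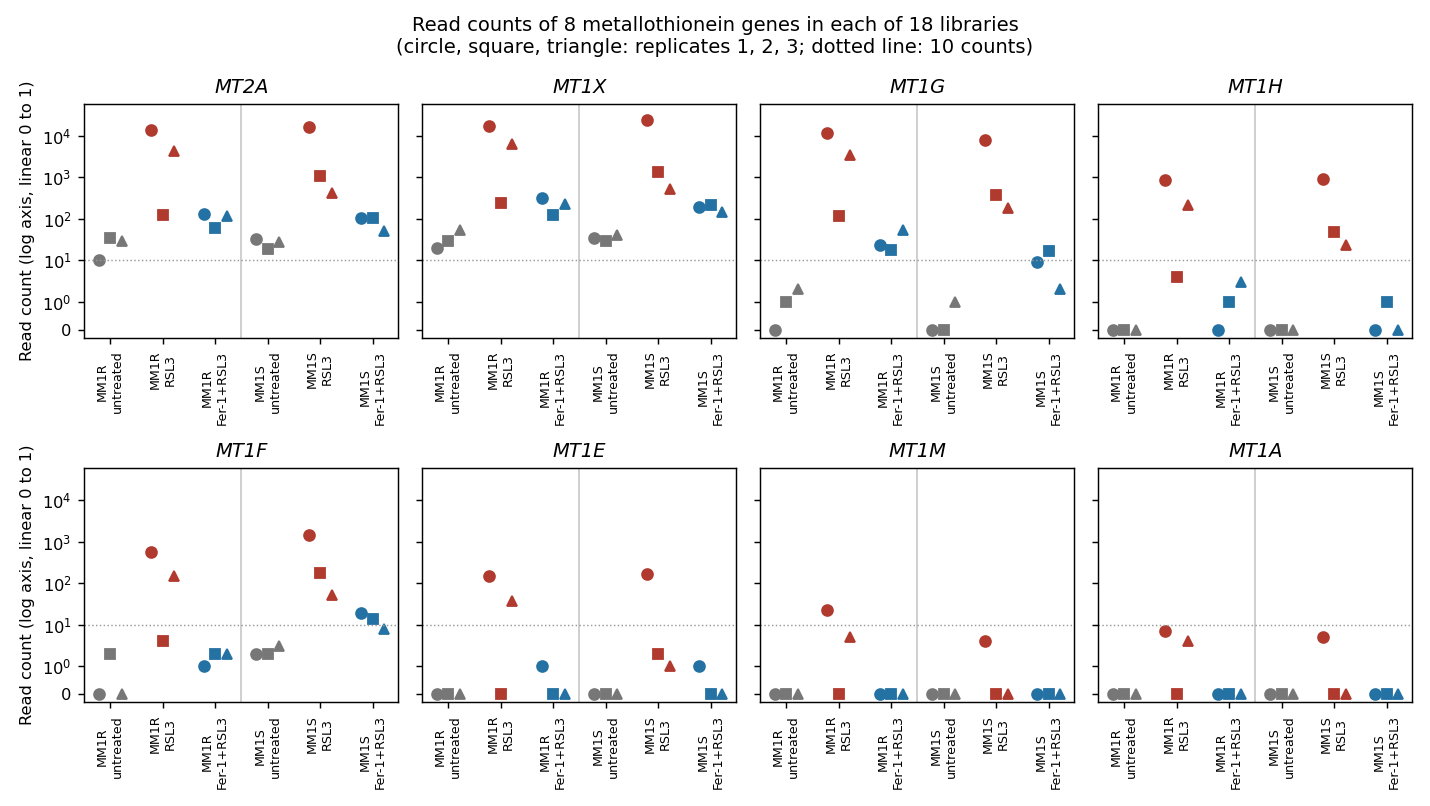
Read counts (log axis, linear from 0 to 1) of each of the 8 genes in the 18 libraries, grouped by line and treatment, with circles, squares and triangles for replicates 1, 2 and 3 and a dotted line at 10 counts. RSL3 libraries reach 13606 counts of MT2A in MM1R and 23969 of MT1X in MM1S, while MT1M and MT1A do not exceed 23 counts.

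Of the 8 genes, 6 passed the filter. MT1H and MT1E reached its minimum of 10 counts only in RSL3 libraries, and 5 of the 7 libraries in which MT1F reached it were RSL3 libraries. A gene that enters through the group where it is high had to differ, so the calls of these genes are no support for the others. MT2A and MT1X reached the minimum in all 18 libraries. RSL3 against untreated called 4 members in MM1R cells (MT2A, MT1F, MT1G and MT1X), where 1.2% of the 14281 genes tested were called, and 5 in MM1S cells (with MT1H), where 1.61% were. Averaged over both lines, all 6 tested members were called, against 3.24% of all genes. With the passage as a replicate block, which pairs libraries of the same passage, all 6 were called in each line, against 2.87% of all genes in MM1R cells and 2.71% in MM1S cells, with edgeR FDRs of 0.00765 and 0.00847 for MT2A and of 0.00648 and 0.00866 for MT1X. In a fit of only the groups compared, or of only the 9 libraries of the line, the count was 3 in MM1R cells (MT2A, MT1G and MT1X, the 3 members that then passed the filter) and 0 in MM1S cells. The calls within a line rested on every control library. When 1 untreated library of a line was left out, whichever it was, 0 members were called in that line, with FDRs just above the threshold (up to 0.0724 for MT2A in MM1R cells and 0.0749 in MM1S cells by edgeR). Without the passage 4 RSL3 library the count in MM1R cells was 1 (MT1G), and without the passage 16 RSL3 library it was 3 in MM1S cells (MT1F, MT1G and MT1X). Without the library that stood apart it was 4 in MM1S cells, with MT1H lost. The averaged count was 5 or 6 whichever library was left out. The share of all genes called is not given for the smaller fits or for those with 1 library left out. Whether other genes lost their calls alike is thus not shown here.

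MT2A, MT1X and MT1G moved together from library to library. Over the 18 libraries, the Pearson correlation of log2 CPM between any 2 of the 6 tested members was 0.87 to 0.991, as a description of libraries that share treatment and depth. MT2A and MT1X were the closest pair at 0.991. In every group of RSL3 libraries the order of the passages was the same for MT2A, MT1X, MT1G, MT1H and MT1F, with passage 4 above 7 and 6 in MM1R cells and passage 16 above 22 and 23 in MM1S cells.

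Levels of different members were compared per kilobase of transcript. On the union of annotated exons, MT1G (367 ± 422 CPM per kb, SD, n = 3) and MT2A (361 ± 403) led in MM1R cells after RSL3, followed by MT1X (254 ± 274), MT1H (26.9 ± 32.5), MT1F (6.98 ± 8.38), MT1E (3.29 ± 4.09), MT1M (0.992 ± 1.27) and MT1A (0.509 ± 0.479). In MM1S cells the order was MT2A (430 ± 671 CPM per kb), MT1X (324 ± 510), MT1G (252 ± 401), MT1H (29.6 ± 46.7), MT1F (19.8 ± 28.6), MT1E (3.61 ± 6.12), MT1A (0.277 ± 0.479) and MT1M (0.171 ± 0.297). The SDs hold the spread between passages, which the members of a library share, so neighbours were also set side by side within each library. MT1G was above MT2A, and MT2A above MT1X, in 2 of the 3 MM1R libraries, and the step from the top 3 down to MT1H was seen in 3 of 3 libraries of each line. MT1H was above MT1F in 3 of 3 MM1R libraries and 2 of 3 MM1S libraries. On the main annotated transcript, a length chosen after the data had been seen, MT1X led in both lines (1085 ± 1170 and 1383 ± 2180 CPM per kb), and in MM1S cells MT1F (86.1 ± 125) came before MT1H (53.9 ± 85.0). The order of the top 3, and that of MT1F and MT1H, thus depended on the length used.

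**Figure D3:**
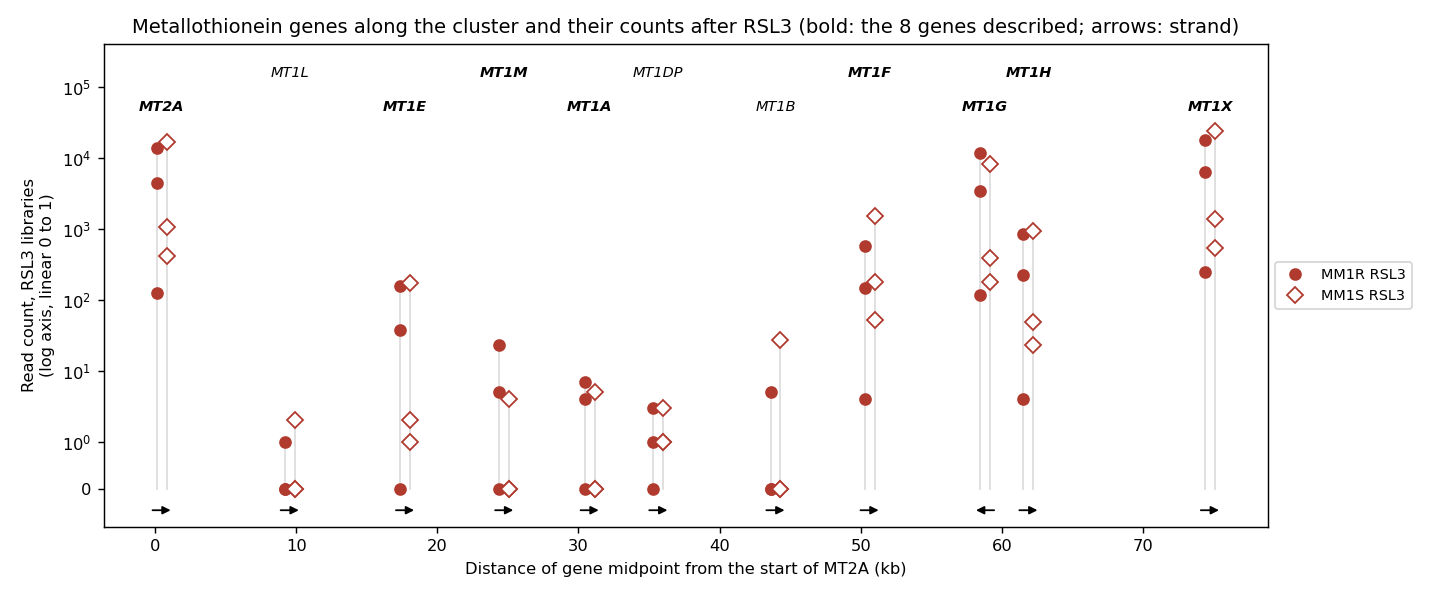
Read counts of the metallothionein genes in RSL3 libraries (log axis, linear from 0 to 1; filled circles MM1R, open diamonds MM1S) against the distance of the gene's midpoint from the start of MT2A in kb, with arrows for the strand and the 8 genes in bold. High counts stand at both ends of the cluster, with MT2A up to 16745 and MT1X up to 23969 counts, and the genes between MT1E and MT1B stay at or below 171 counts.

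Position along the cluster did not order the levels. MT2A at one end and MT1X at the other were high, and MT1M and MT1A, which start 24075 and 30082 bases from the start of MT2A, were barely detected. Of 14 further metallothionein genes and pseudogenes looked up, 8 had a row in the table and none passed the filter. MT1B, which lies between MT1A and MT1F, had 5, 0 and 0 counts after RSL3 in MM1R cells and 27, 0 and 0 in MM1S cells. MT1L had at most 2 counts, MT1DP at most 3 and MT1HL1 at most 1, and MT3, MT4, MT1JP and MT1IP were listed at 0 in all 18 libraries. Of 10 genes flanking the cluster, 7 were tested and 1, HERPUD1, was called higher after RSL3 in both lines. The shares of all genes called were 1.2% in MM1R cells and 1.61% in MM1S cells. HERPUD1, a gene of the endoplasmic reticulum stress response that starts 323558 bases from MT2A, had log2 fold changes of 1.33 ± 0.322 (edgeR FDR 0.0322) and 1.46 ± 0.323 (edgeR FDR 0.0211). The nearest flanking genes BBS2 and NUP93 stayed at 21.3 to 29.5 CPM and 55.1 to 97.5 CPM over all 18 libraries.

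At all 6 passages the summed level of the family was lower with Fer-1 and RSL3 than with RSL3 alone, and above the untreated level. The fall was smallest at passage 6 of MM1R cells, 2.52 times after a rise of 7.36 times. MT2A had 133, 62 and 118 counts with Fer-1 and RSL3 in MM1R cells and 105, 108 and 52 in MM1S cells. MT1X had 323, 122 and 231 counts in MM1R cells and 194, 213 and 146 in MM1S cells. MT1G had 24, 18 and 54 counts in MM1R cells and 9, 17 and 2 in MM1S cells. In all 6 passages each of these 3 genes was lower than with RSL3 alone and higher than without treatment. For MT2A and MT1X the highest Fer-1+RSL3 library of MM1R cells overlapped the lowest RSL3 library (passage 6), and in MM1S cells the groups did not overlap.

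MT1F had 1, 2 and 2 counts with Fer-1 and RSL3 in MM1R cells, where it had 0 to 2 without treatment, and 19, 14 and 8 in MM1S cells, where it had 2 to 3. MT1H had 0, 1 and 3 counts in MM1R cells and 0, 1 and 0 in MM1S cells. MT1E had 1 count at passage 4 and 1 at passage 16 and otherwise 0, and MT1M and MT1A were at 0. The summed level of the 8 genes was 24.4, 10.7 and 22.3 CPM in MM1R cells and 17.0, 19.3 and 10.9 CPM in MM1S cells. It was 98.1, 2.52 and 37 times lower than with RSL3 alone in MM1R cells and 199, 8.36 and 5.89 times lower in MM1S cells. With Fer-1 the libraries of a line lay within 2.29 times of each other in MM1R cells and 1.77 times in MM1S cells.

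Within a line, Fer-1 and RSL3 against RSL3 alone called 0 members by edgeR, where 0% of all genes were called in either line. All 6 tested members had an unadjusted p under 0.05 in each line, with edgeR FDRs of 0.397 to 0.709 in MM1R cells and 0.783 in MM1S cells, where 881 and 821 genes of the whole table had an unadjusted p under 0.05. The fitted log2 change of MT2A was -5.92 ± 1.41 in MM1R cells and -6.39 ± 1.45 in MM1S cells. DESeq2 called MT2A, MT1F, MT1G and MT1X in each line, against 0.084% of all genes in MM1R cells and 0.035% in MM1S cells. With limma on the authors' normalized values the count was 0. With the passage as a replicate block, edgeR called MT1E, MT1F, MT1G and MT1H in each line, against 0.084% and 0.035% of all genes, and did not call MT2A (FDR 0.122 and 0.316) or MT1X (FDR 0.156 and 0.352), the 2 genes measured in every library. MT1E and MT1H entered this test only through their RSL3 libraries, and MT1E in MM1S cells rested on 1 of them. For MT1F, 5 of the 7 libraries with at least 10 counts were RSL3 libraries. The p-values and calls of MT1E, MT1H and MT1F are thus no support for the other members. Without the passage 16 RSL3 library of MM1S cells, 4 members were called in MM1R cells, with the share of all genes not given.

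Averaged over both lines, 4 members were called lower with Fer-1 than with RSL3 alone, against 0.056% of all genes (8 of 14281). These were MT2A (log2 fold change -6.15 ± 1.01, edgeR FDR 0.0307), MT1X (-5.53 ± 0.957, edgeR FDR 0.0315), MT1G (-7.95 ± 1.19, edgeR FDR 0.015) and MT1F (-6.37 ± 1.06, edgeR FDR 0.0307). Of the 7 libraries in which MT1F reached 10 counts, 5 were RSL3 libraries, so its call is no support for the others. The FDR of MT1H was 0.0565 and that of MT1E 0.119 in the same edgeR test. The count was 0 without any 1 of the 6 Fer-1+RSL3 libraries, the one that stood apart included, and 0 without replicate 3 of untreated MM1S cells. It was 1 (MT1G) without replicate 2 of untreated MM1R cells or without the passage 4 RSL3 library, and 3 to 6 without any other library. It was 0 in a fit of only the groups compared and 2 (MT1G and MT1H) with limma on the authors' normalized values. The counts from these other fits are given without the share of all genes called.

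Against untreated cells, the level left with Fer-1 was higher in every passage for MT2A and MT1X, and no member was called by edgeR over all groups. MT1G was higher too, but at passage 23 only by 2 counts against 1. MT2A was 4.05 times (95% counting interval 3.13 to 5.29) and MT1X 6.22 times (5.06 to 7.73) the untreated level in MM1R cells, and 3.46 times (2.68 to 4.50) and 5.32 times (4.32 to 6.61) in MM1S cells. Their fitted log2 fold changes were 2.00 ± 1.53 and 2.62 ± 1.40 in MM1R cells and 1.79 ± 1.54 and 2.41 ± 1.40 in MM1S cells, with edgeR FDRs of 0.262 to 0.606. For each of these genes all 3 Fer-1+RSL3 libraries of a line lay above all 3 untreated ones. How many of all genes were separated in this way was not counted. edgeR called 0 members in either line, against 2.16% of all genes in MM1R cells and 1.37% in MM1S cells. None of the members (0 of 6) had an unadjusted p under 0.05 in this edgeR test. Of the 14281 genes tested, 3513 did in MM1R cells and 2687 in MM1S cells. DESeq2 called 1 member in MM1R cells (MT1G) and 0 in MM1S cells, and limma called 0. In edgeR fits of only the groups compared, MT2A, MT1G and MT1X were called in MM1R cells, and MT2A and MT1X in MM1S cells. The share of all genes called is not given for these fits.

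No difference between the lines was detected in the size of either response. The line difference in the RSL3 response and that in Fer-1 and RSL3 against RSL3 called 0 members, and 0% of all genes, by edgeR, and 0 members by DESeq2 and limma, and 0 of 6 members had an unadjusted p under 0.05 in either (lowest p 0.835 and 0.562). With standard errors above 1 on the log2 scale within each line, differences of several-fold between the lines were not detectable.

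The ratio of 2 members within a library was set side by side between the lines, a measure chosen after the values were seen. An exact permutation test of 3 libraries against 3 cannot give a p below 0.1, so no test is given. Of 8 such comparisons, MT1X, MT1G, MT1F and MT1H per MT2A count under each treatment, 4 overlapped between the lines and 4 did not. After RSL3, MT1G had 0.854, 0.935 and 0.774 counts per MT2A count in MM1R cells and 0.488, 0.366 and 0.43 in MM1S cells, without overlap (0.855 ± 0.0805 against 0.428 ± 0.0609, SD, n = 3). With Fer-1 and RSL3 the ratio was 0.18, 0.29 and 0.458 in MM1R cells and 0.0857, 0.157 and 0.0385 in MM1S cells, again without overlap. MT1F went the other way. It had 0.0413, 0.0323 and 0.0332 counts per MT2A count after RSL3 in MM1R cells and 0.0887, 0.166 and 0.125 in MM1S cells, and 0.0189 ± 0.0125 against 0.155 ± 0.0257 with Fer-1. MT1H per MT2A count was 0.0481 ± 0.0151 and 0.0522 ± 0.00495 after RSL3, and MT1X per MT2A count 1.57 ± 0.379 and 1.34 ± 0.0835, and both overlapped between the lines. The ratios of MT1F rest on as few as 1 to 4 counts in 4 of the 6 treated MM1R libraries.

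**Figure D4:**
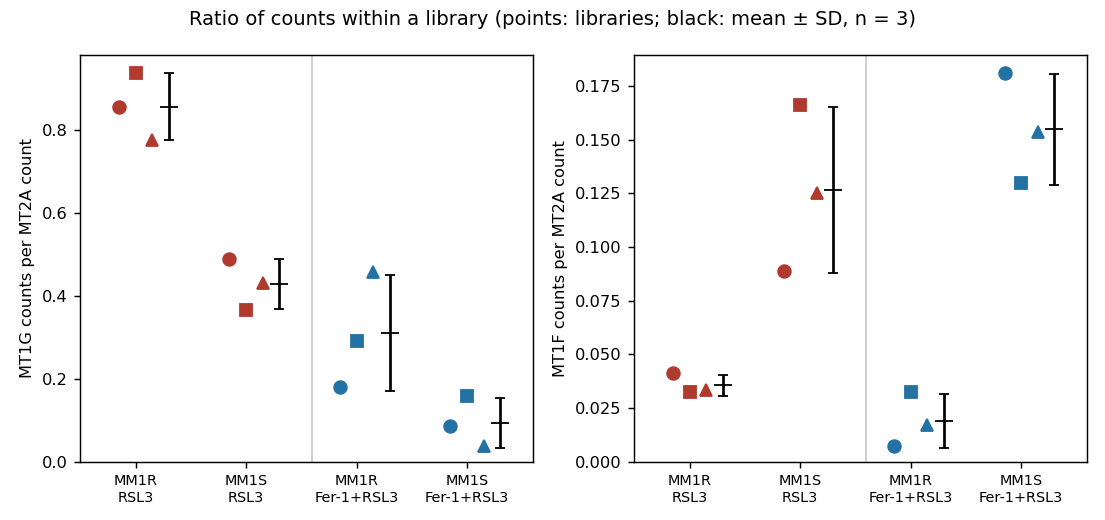
Counts of MT1G (left) and MT1F (right) per count of MT2A in each RSL3 and Fer-1+RSL3 library of MM1R and MM1S cells, with the mean ± SD (n = 3) in black. MT1G per MT2A is 0.774 to 0.935 in MM1R and 0.366 to 0.488 in MM1S after RSL3, and MT1F per MT2A is 0.0323 to 0.0413 and 0.0887 to 0.166.

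Shares of the family's counts were also set side by side between the treatments. MT1G made up 23.4% to 26.1% of the family's counts after RSL3 in MM1R cells and 12.7% to 15.9% in MM1S cells, against 4.98% to 13.2% and 0.962% to 4.82% with Fer-1 and RSL3. MT1X made up 39.7% to 50% after RSL3 in MM1R cells and 44.3% to 46.6% in MM1S cells, against 56.6% to 67.0% and 59.1% to 70.2% with Fer-1. The treatment groups of a line did not overlap for either gene, but the shares add up to a fixed total, so that one rises where another falls. Per MT2A count, MT1X overlapped between the treatments in MM1R cells (1.30, 2 and 1.41 after RSL3, and 2.43, 1.97 and 1.96 with Fer-1) and not in MM1S cells (1.43, 1.29 and 1.28, and 1.85, 1.97 and 2.81). MT2A held 25% to 34.8% of the family in all 12 treated libraries.

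SLC30A1, the zinc exporter of the cell surface and itself a target of MTF1, was highest in the libraries with the highest metallothionein levels. After RSL3 its level was 1043, 321 and 802 CPM in the MM1R libraries and 1310, 312 and 254 CPM in the MM1S libraries, against 220 to 325 CPM in all 6 untreated libraries and 215 to 303 CPM with Fer-1 and RSL3. The high libraries were those at passages 4, 7 and 16, and the other 3 RSL3 libraries lay within the untreated range. Its log2 fold change was 1.38 ± 0.468 (edgeR FDR 0.119) in MM1R cells and 1.15 ± 0.466 (edgeR FDR 0.183) in MM1S cells, and it was called when averaged over the lines (1.26 ± 0.33, edgeR FDR 0.0169).

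Of 24 zinc transporters of the SLC30 and SLC39 families, 17 were tested. After RSL3, edgeR called 0 of them in MM1R cells, against 1.2% of all genes. In MM1S cells it called 1, which was lower, against 1.61% of all genes. This was SLC39A10, a zinc importer, which was at 42.6 to 47.8 CPM without treatment and 15.4 to 25.0 CPM after RSL3 in MM1S cells (log2 fold change -1.16 ± 0.215, edgeR FDR 0.00878). It was at 29.1 to 37.2 CPM and 14.9 to 21.1 CPM in MM1R cells. With Fer-1 it stayed low, at 15.7 to 19.3 CPM in MM1S cells (edgeR FDR 0.0017 against untreated). The median log2 fold change of the 17 genes after RSL3 was -0.02 in MM1R cells and 0.03 in MM1S cells, beside 0.00 over all genes tested. Of 11 copper handling genes, 9 were tested and 0 were called in either line, against the same shares of all genes. With so few genes tested, these counts do not set either list apart from all genes.

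MTF1 itself was at 33.2 to 50.2 CPM in all 18 libraries and was not called (log2 fold change after RSL3 -0.04 ± 0.144 and -0.08 ± 0.144, edgeR FDR 0.931 and 0.81). HSF1, the heat shock factor, was at 4.47 to 8.91 CPM and was not called either (edgeR FDR 0.923 and 0.747). NFE2L2, which encodes the antioxidant regulator NRF2, was higher after RSL3 by a log2 fold change of 0.53 ± 0.132 (edgeR FDR 0.037) and 0.57 ± 0.132 (edgeR FDR 0.0243), under the minimum of 1 set for a call. NR3C1 was not called after RSL3 (edgeR FDR 0.726 and 0.383) and was lower in untreated MM1R than MM1S cells (log2 fold change -2.97 ± 0.523, edgeR FDR 0.00193). Its level was highest, at 392 CPM, in the passage 16 RSL3 library of MM1S cells, which also had the highest metallothionein level and the lowest scaling factor (0.864). The part of these in the metallothionein level was not tested. Of the 10 regulators looked up, 1 was called after RSL3 in both lines, against 1.2% and 1.61% of all genes. This was BACH1, a repressor of antioxidant genes, with log2 fold changes of 1.48 ± 0.27 (edgeR FDR 0.00862) and 1.47 ± 0.269 (edgeR FDR 0.00851).

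Of 8 other genes that metals are known to induce, 6 were tested and 5 were called higher after RSL3 in each line. The shares of all genes called were 1.2% in MM1R cells and 1.61% in MM1S cells. The 5 genes were HSPA6 and DNAJB1 (heat shock proteins), HMOX1 (heme oxygenase 1), SLC7A11 (the cystine transporter) and GCLM (glutathione synthesis). These 5 were called higher with Fer-1 and RSL3 than without treatment in each line, against 2.16% and 1.37% of all genes. Against RSL3 alone, 0 of the 6 were called different with Fer-1 and RSL3. There 0% of all genes, and 0 of 6 metallothioneins, were called in either line. The median log2 change of the 6 genes with Fer-1 was 0.28 for MM1R and -0.10 for MM1S. The difference from the metallothioneins was not tested. The sixth gene tested is SLC30A1, and HSPA1A was listed at 0 in all 18 libraries. HMOX1 had 237, 243 and 1404 CPM after RSL3 in the MM1R libraries and 2298, 310 and 434 CPM in the MM1S libraries, against 9.09 to 25.4 CPM without treatment. With Fer-1 and RSL3 it had 748, 685 and 1463 CPM in MM1R libraries and 1220, 1142 and 975 CPM in MM1S libraries. Its log2 fold change with Fer-1 and RSL3 over untreated cells was 5.67 ± 0.824 (edgeR FDR 0.000942) and 6.67 ± 0.865 (edgeR FDR 0.000487). In MM1R cells HMOX1 was highest at passage 7, not at passage 4, where the metallothioneins were highest.

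**Figure D5:**
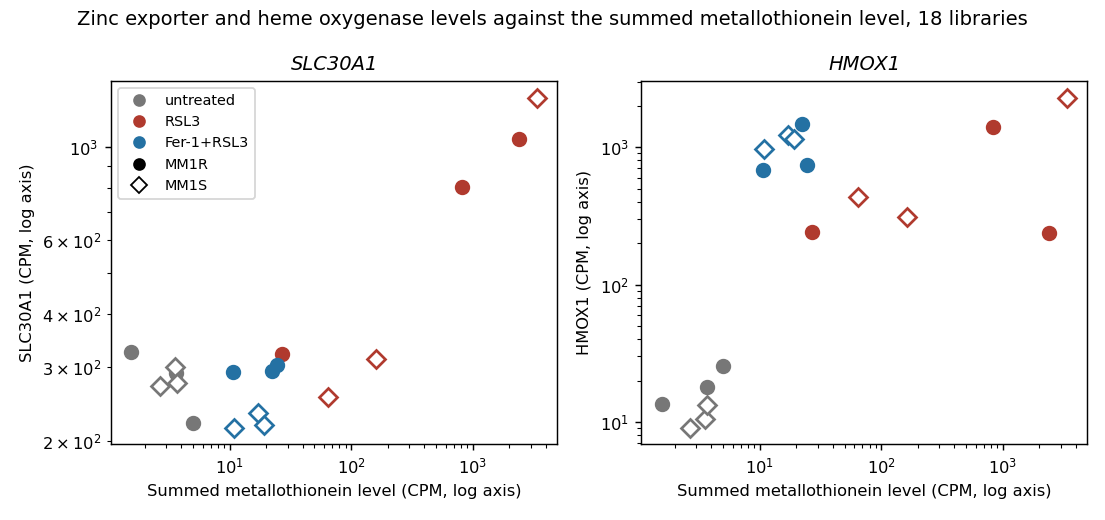
Levels of SLC30A1 (left) and HMOX1 (right) in CPM against the summed metallothionein level in CPM (both axes log) in the 18 libraries, with filled circles for MM1R, open diamonds for MM1S and colours for the treatment. SLC30A1 exceeds 800 CPM only in the 3 libraries with a summed metallothionein level above 800 CPM, while HMOX1 is at 685 to 1463 CPM in Fer-1+RSL3 libraries in which the metallothioneins are at 10.7 to 24.4 CPM.

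Over the 18 libraries, which share treatments and passages, the Pearson correlation of log2 CPM with the summed metallothionein level was 0.835 for SLC30A1, 0.703 for HSPA6 and 0.642 for HMOX1. After the group means were taken out it was 0.894 for SLC30A1, the sixth highest of all genes outside the family, 0.714 for HSPA6 and 0.597 for HMOX1. These are descriptions of the libraries and carry no test.

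The 10 genes outside the family with the pattern most like it over the 18 libraries were RND3 (0.964), CYTIP (0.955), RAP2B (0.946), NR4A3 (0.928), DNAJB9 (0.924), EIF2AK3 (0.922), IL10RA (0.920), DAPP1 (0.918), CD55 (0.918) and OTUD1 (0.917). RND3 was at 22.1 to 97.2 CPM after RSL3 in MM1R cells and 20.9 to 124 CPM in MM1S cells, against 4.56 to 10.4 CPM in untreated cells and 9.23 to 19.2 CPM with Fer-1 and RSL3. NR4A3, a nuclear receptor of the early response, was at 1.57 to 157 CPM after RSL3 in MM1R cells and 0.907 to 733 CPM in MM1S cells, against at most 0.251 CPM without treatment and at most 3.01 CPM with Fer-1. CD55, a complement regulator of the cell surface, was at 43.9 to 169 CPM and 50.5 to 663 CPM after RSL3, at 16.6 to 32.7 CPM without treatment and at 35.4 to 59.2 CPM with Fer-1 and RSL3, which overlaps the RSL3 libraries. DNAJB9 and EIF2AK3 belong to the response to unfolded proteins in the endoplasmic reticulum, like HERPUD1. Without the library that stood apart, 9 of these 10 genes stayed among the 10 most alike. With group means removed, CYTIP and OTUD1 were among the 10 most alike and the other 8 ranked between 12 and 117.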

How the data were processed

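RNA from the 18 samples was sequenced by the authors. They deposited a table of raw read counts per gene and a table of normalized signal, which is the same counts divided by DESeq2 size factors by the authors. The submitters' processing notes name FastQC 0.11.5, STAR 2.7.3a, hg19 and DESeq2. The counting tool, annotation and strand setting are not given in the sources used here.

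Counts were tested with edgeR 4.0.16 in R 4.3.3 (TMM scaling, filterByExpr with a minimum count of 10, quasi-likelihood test, all 18 libraries in 1 fit of the 6 groups). A gene was called when its Benjamini-Hochberg FDR was below 0.05 and its log2 fold change exceeded 1 in either direction. DESeq2 1.42.0 and limma 3.58.1 (log2 of the authors' normalized value plus 1) were alternatives, with other scalings, filters, sample choices, thresholds, the passage as a replicate block, and each library left out. The code was tested on simulated data. Library totals were 17635438 to 19368343 counts, and counting intervals (95%) cover counting error only.

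Passages come from the labels. Deviations of same-passage libraries from their group means correlated at a median of 0.25 (0.0338 to 0.516, 9 pairs) in MM1R cells and 0.416 (0.216 to 0.681, 9 pairs) in MM1S cells.

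The members and gene lists were chosen with earlier results of these data known. The text names all 8 members, SLC30A1, MTF1, NFE2L2, HSF1 and NR3C1, up to 4 genes of each list called after RSL3 in both lines, and the 10 genes most correlated with the summed level. SLC39A10, GCLM, HSPA1A, BBS2, NUP93 and the other metallothionein rows were named after their values were seen. Gene positions are those of the hg19 annotation. Promoter sequences are RefSeq (GRCh38.p14), and protein sequences were not used here.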

Additional observations from a re-analysis of the deposited data

How the results depend on the processing

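No member's fold change between treatments reversed under any alternative run, within a line or averaged over the lines. Members near the floor with Fer-1 and RSL3 were left out of the comparison with untreated cells. Of these results under alternatives other than leaving out a library, 381 kept their side of the threshold, 18 lost it and 81 gained it. With 1 library left out the numbers were 681, 78 and 15. Among the line differences, which are not in these numbers, some changed sign with the passage as a replicate block. That in the RSL3 response went from -0.254 to 0.0367 for MT2A and from -0.412 to 0.162 for MT1X. The number of members called moved as follows, and the cause was not tested. The share of all genes called in the same fit stands in brackets where it is given, and the other numbers come without it. Those with no filter on low counts come from a fit with far smaller standard errors. For RSL3 against untreated the number called went from 4 to 7 in MM1R cells with no filter on low counts (1.55% of all genes). In MM1S cells it went from 5 to 0 in a fit of only the groups compared or only the 9 libraries of the line. For Fer-1 and RSL3 against RSL3 it went from 0 in each line to 4 and 4 with DESeq2 and to 7 in MM1R and 6 in MM1S cells with no filter, and to 4 in MM1R cells at an FDR under 0.5. With the passage as a replicate block it was 4 in each line (0.084% and 0.035%) and 6 in the mean of the lines (0.371%). It was also 4 in each line with MM1R Fer-1+RSL3 replicate 2 left out, an alternative chosen after seeing the data. In the mean of the lines it went from 4 to 2 with limma, 8 with no filter (0.607%) and 0 with only the groups compared. For Fer-1 and RSL3 against untreated it went from 0 to 1 with DESeq2 in MM1R cells. It was 3 there with no filter (1.8%), with only the groups compared and at an FDR under 0.5. In MM1S cells it went from 0 to 4 with no filter (1.36%), 2 with only the groups compared and 1 at an FDR under 0.5. With 1 library left out, the number called ranged from 0 to 6 for RSL3 against untreated in each line, 5 to 6 in the mean of the lines, 0 to 4 for Fer-1 and RSL3 against RSL3 in MM1R cells, 0 to 0 in MM1S cells, 0 to 6 in their mean, and 0 to 0 for the other comparisons. The replicate block changed no other count by over 1.5 times, and the untreated lines cannot be compared with it because no passage is shared between lines. Low counts limit MT1E, MT1M and MT1A most, since 3, 1 and 0 libraries reached 10 counts.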
